A study of Mus musculus with 89 samples.

Results

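Krt6a, Krt6b, Krt16 and Krt17 are the stress or wound keratins of the epidermis. These 4 genes were chosen by name from the 19962 targets of a mouse whole-transcriptome panel, and all 4 were among the 5087 targets detected often enough to be tested. Their tag counts were described over 89 segments of mouse squamous cell carcinoma, which the labels call neutrophil, taken from fresh frozen sections with the GeoMx profiler. In this assay oligonucleotide tags bind RNA on the section, and ultraviolet light releases the tags of a chosen region for sequencing. The study asks how neutrophils in different regions of these tumours respond to immunotherapy.

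Keratin filaments are built from pairs of a type II and a type I keratin. In resting epidermis basal cells make mainly Krt5 with Krt14, and suprabasal cells make Krt1 with Krt10. Krt6a and Krt6b, both type II, and their type I partners Krt16 and Krt17 are low between hair follicles, and are induced in keratinocytes at wound edges, in hyperproliferative skin and in many squamous carcinomas. Keratins are proteins of epithelial cells, not known products of neutrophils, so their counts in these segments also bear on which cells a segment held.

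The deposited annotation gives each segment a slide and a location. The naive slide, before treatment, held 15 segments in stroma, 13 at the interface with the tumour and 14 within the tumour. The acute slide, after treatment, held 9 in stroma and 2 at the interface. The relapse slide, also after treatment, held 14 in stroma and 22 at the interface. No source used here states the agents, the animals or how many tumours were sampled. Segments of a slide share tissue, so the p-values over segments are too small. The scan of the naive slide is named "naive UP HRass" and that of the relapse slide "DMBA Relapse", which are different words for a tumour model. The scan of the acute slide is named "treated", and the relapse slide itself also carries the slide name "treated". Naive segments were all collected on plate G and relapse segments all on plate H, while acute stroma was split, with 4 segments on plate G and 5 on plate H. Stage, slide and tumour model cannot be told apart, and plate can be separated from stage only through the acute stroma segments.

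Counts were recovered from the deposited normalised values and have a floor of 1. Depth, the sum of all counts above that floor, ran from 573 to 208675 per segment with a median of 7216. It was lowest in relapse, with a median of 3964 in stroma and 3570 at the interface, against 10736 in naive stroma, 18307 at the naive interface, 4438.5 within naive tumours and 64652 in acute stroma. Levels are therefore given as the count and as counts above the floor per 10000 counts of depth. A level of 0 at the median depth allows up to 2.79 per 10000 in naive stroma, 1.64 at the naive interface, 6.76 within naive tumours and 0.464 in acute stroma, by the rule of 3 counts, which covers counting error only. The 15 neutrophil markers together made up a median of 6.47 to 16.8 per 10000 in the 7 classes, and 10 to 14 of the 15 had a median at the floor in every naive and relapse class. Ly6g, which defines neutrophils, had a median at the floor in naive stroma and in both relapse classes.

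The 4 genes lie in the type II and type I keratin clusters. In the RefSeq annotation of GRCm38.p6, Krt6b spans chr15:101676023-101680293 and Krt6a chr15:101689928-101694305, 9634 bp apart with 0 annotated genes between them. Krt16 spans chr11:100246091-100248902 and Krt17 chr11:100256215-100261029, 7312 bp apart, again with 0 genes between them. Krt6a and Krt6b are close paralogues, and whether the tags of either also bind the RNA of the other is not stated, so the separation of these 2 signals is uncertain. Levels of different members are not compared, since the number and efficiency of the tags per target are not known.

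Each member had low counts in naive and acute segments, and relative to depth its medians were higher in relapse. In naive stroma the Krt6a count ran from 1 to 44 with a median of 3, or 0.955 per 10000. At the naive interface it ran from 1 to 12 with a median of 3 (0.839 per 10000), and within naive tumours from 1 to 20 with a median of 2.5 (2.31 per 10000). In acute stroma it ran from 1 to 40 with a median of 3 (0.273 per 10000). In relapse stroma Krt6a ran from 3 to 11 with a median of 8 (16.3 per 10000), and at the relapse interface from 1 to 28 with a median of 15.5 (32.01 per 10000). The 2 acute interface segments held 2 and 24 counts of Krt6a, 0.198 and 4.57 per 10000. The median count was thus highest at the relapse interface, while the highest single counts, 44 and 40, were in deep naive and acute stroma segments.

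Krt6b, the second type II member, followed the same order between relapse and the other stages. Its median count was 2 in naive stroma, 3 at the naive interface, 2 within naive tumours and 5 in acute stroma, which correspond to 0.797, 0.795, 0.631 and 0.719 per 10000. The median was 5.5 in relapse stroma (range 1 to 13) and 8.5 at the relapse interface (range 1 to 25). Relative to depth these medians were 8.94 and 13.7 per 10000. The acute interface segments held 5 and 7 counts, 0.794 and 1.19 per 10000. The highest single count of Krt6b, 34, was in naive stroma. The medians of the 3 naive classes and acute stroma lay close together, and the spread within each class was larger than the gaps between them.

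Krt16, the usual partner of Krt6, had a median of 3 counts in naive stroma (2.08 per 10000), 2 at the naive interface (1.06 per 10000) and 1, the floor, within naive tumours. In acute stroma the median was 5, which is 0.494 per 10000, and the acute interface segments held 1 and 7 counts, 0 and 1.19 per 10000. In relapse stroma Krt16 ran from 2 to 14 with a median of 8 (14.1 per 10000), and at the relapse interface from 2 to 40 with a median of 14 (32.6 per 10000). The highest single count of Krt16, 46, was in naive stroma. No relapse segment was at the floor for Krt16, while 5 of 15, 6 of 13 and 8 of 14 naive segments were, in stroma, at the interface and within the tumour.

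Krt17, which is also a keratin of hair follicles, was the member nearest to the floor. Its median count was 1 in naive stroma, 2 at the naive interface, 1 within naive tumours and 3 in acute stroma. The median was 3 in relapse stroma (range 1 to 6) and 3 at the relapse interface (range 1 to 11). On the scale of depth these were 0, 0.546, 0, 0.494, 3.38 and 7.31 per 10000, with both relapse medians the highest. In the count itself the relapse medians of Krt17 lay above the naive ones and equalled that of acute stroma. The acute interface segments held 3 and 11 counts of Krt17, 0.397 and 1.99 per 10000, and the higher of them equals the highest relapse count. The highest single counts of Krt17 were 15 in acute stroma and 12 in naive stroma. Krt17 was at the floor in 5 of 14 relapse stroma and 3 of 22 relapse interface segments.

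**Figure D1:**
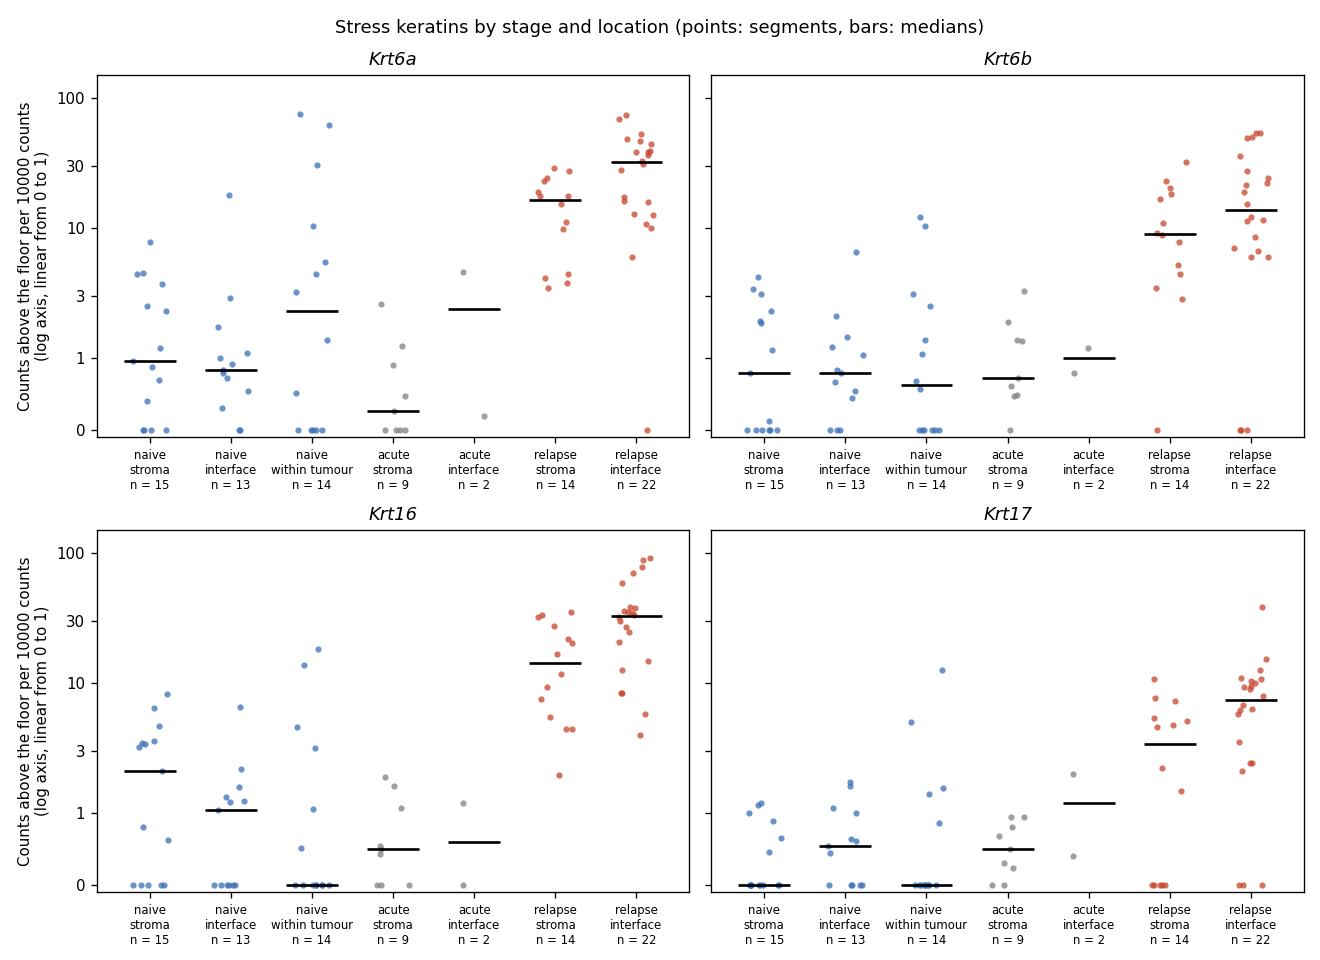
Counts above the floor per 10000 counts of depth (log axis, linear from 0 to 1) for Krt6a, Krt6b, Krt16 and Krt17 in the 7 classes. Points are segments and bars are class medians. The relapse medians of Krt6a are 16.3 and 32.01, and the naive and acute medians lie between 0.273 and 2.38.

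A segment's limit of quantitation was set from its negative probes, at no less than 2 counts. Over the 89 segments Krt6a exceeded it in 57, Krt6b in 51, Krt16 in 55 and Krt17 in 35. All 4 members exceeded it together in 8 of 14 relapse stroma and 16 of 22 relapse interface segments. This happened in 1 segment of each naive class, in 0 of 9 acute stroma segments and in 1 of 2 acute interface segments, the other having none above it. None of the 4 exceeded it in 3 segments of each naive class and in 6 of 9 acute stroma segments, and every relapse segment had at least 1 member above it. The limit itself was higher in acute segments, with a median of 9.25 counts in stroma and 6.82 at the interface, against 2.37 at the naive interface and 2 in the other 4 classes. Over all targets the order was the other way, with 5.51% and 4.00% of values above the limit in relapse stroma and interface and 8.87% to 16.7% in the naive classes.

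In stroma all 4 members were higher in relapse than in naive tumours. Across all tested targets 1.61% differed in this comparison and 0.295% were higher in relapse, by limma with depth as a covariate and Benjamini-Hochberg adjustment. The difference in log2 normalised value was 1.56 for Krt6a (SE 0.380, adjusted p = 0.00727) and 1.63 for Krt6b (SE 0.334, adjusted p = 0.000819). Krt16 differed by 1.67 (SE 0.358, adjusted p = 0.00174) and Krt17 by 0.95 (SE 0.261, adjusted p = 0.0270). These differences are on the scale of log2(value + 1), which understates the change of low targets. The classes overlapped for each member, and 10 of 14 relapse segments for Krt6a, 11 for Krt6b, 9 for Krt16 and 9 for Krt17 lay above the highest of the 15 naive segments per 10000. The 9 for Krt17 are all its relapse stroma segments above the floor. Median depth was 3964 in relapse and 10736 in naive stroma, so 1 count weighs more in relapse on this scale. The share of all targets with such a separation was not computed. Mean levels of Krt16 were 16.5 ± 11.7 per 10000 (SD, n = 14) in relapse and 2.41 ± 2.57 (SD, n = 15) in naive stroma, a ratio of 6.83, whereas counts pooled over segments gave a ratio of 4.03.

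The stroma result rested on few areas of tissue. Segments were grouped by position into 17 clusters of neighbours, called pieces here, of which the annotation itself says nothing. Relapse piece 4 held 9 of the 14 relapse stroma segments, and without it none of the 4 members passed, with adjusted p of 0.716 for Krt6a, 0.0588 for Krt6b, 0.0797 for Krt16 and 0.998 for Krt17 by limma, though 3 of the 4 had an unadjusted p under 0.05. Without naive piece 3, with 6 of the 15 naive stroma segments, only Krt6b passed (adjusted p = 0.0407). Krt17 alone missed the threshold without naive piece 4 (0.0590) or naive piece 5 (0.0690). With plate as a further covariate the 4 differences were 1.66, 1.78, 2.01 and 0.97 for Krt6a, Krt6b, Krt16 and Krt17 and none passed, with adjusted p from 0.545 to 0.756 and 3 at an unadjusted p under 0.05.

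At the interface the 4 members were also higher in relapse than in naive tumours, by larger amounts. Of all tested targets 1.45% differed and 1.42% were higher in relapse. Krt16 differed most among the 4, by 3.21 (SE 0.359, adjusted p = 1.53e-12 by limma). Krt6a differed by 2.81 (SE 0.381) and Krt6b by 2.47 (SE 0.334), each with an adjusted p of 8.96e-09, and Krt17 by 1.80 (SE 0.261, adjusted p = 1.12e-07). For Krt16, 20 of 22 relapse segments lay above all 13 naive interface segments per 10000, and for Krt17 19, for Krt6b 17 and for Krt6a 13 did. For Krt17 these 19 are all the relapse interface segments above the floor. Median depth was 3570 at the relapse and 18307 at the naive interface, so 1 count weighs more in relapse on this scale. The share of all targets with such a separation was not computed. For Krt6a 1 naive segment, in naive piece 1, was at 17.8 per 10000, and 21 of 22 relapse segments lay above the next highest, at 2.88. Mean levels of Krt16 were 35.6 ± 25.7 per 10000 (SD, n = 22) in relapse and 1.16 ± 1.77 (SD, n = 13) in naive tumours.

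With plate as a covariate the interface differences kept their size, at 2.91 for Krt6a, 2.62 for Krt6b, 3.56 for Krt16 and 1.82 for Krt17, and Krt16 alone passed (adjusted p = 0.0246 by limma). That fit takes the plate effect from the acute stroma segments. Without naive piece 4, which held 8 of the 13 naive interface segments, Krt17 lay at an adjusted p of 0.0501 and the other 3 members passed.

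Relapse and acute are both stages after treatment, and in stroma they shared plate H in part. In this comparison 0.983% of all targets differed and 0.865% were higher in relapse, among them Krt6a, Krt6b and Krt16. Krt6a differed by 2.40 (SE 0.457, adjusted p = 0.000293), Krt6b by 1.90 (SE 0.401, adjusted p = 0.00170) and Krt16 by 2.48 (SE 0.431, adjusted p = 9.41e-05). The relapse and acute segments did not overlap for Krt6a or Krt16 per 10000, and the share of all targets without overlap was not computed. Median depth was 3964 in relapse and 64652 in acute stroma, so 1 count weighs more in relapse on this scale. The lowest relapse stroma segment held 3.43 of Krt6a and 1.96 of Krt16, and the highest acute segment 2.62 and 1.88. Counting error spans these gaps, with exact binomial 95% intervals of 1.38 to 7.06 and 0.534 to 5.02 for the relapse values and 1.86 to 3.58 and 1.25 to 2.71 for the acute ones. The shallowest acute segments, at depths of 2110 and 3054, were at 0 for both, which by the same intervals allows up to 17.5 and 12.1. Krt17 differed by 1.07 (SE 0.313, 95% confidence interval 0.45 to 1.69) and did not pass (adjusted p = 0.0605).

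On plate H alone, with 5 acute and 14 relapse stroma segments, Krt6a, Krt6b and Krt16 were higher in relapse, where 1.85% of all targets differed and 1.57% were higher. Krt6a differed by 3.66 (adjusted p = 0.00370), Krt6b by 2.88 (0.0274) and Krt16 by 3.16 (0.0116), and Krt17 by 1.67 (0.0992). The acute segments in this fit had depths of 10587, 73363, 111275, 149120 and 208675, and the relapse stroma segments 1807 to 20415. Only the acute segment at 10587 lay within the relapse range, so depth and stage can hardly be told apart on plate H alone. Without relapse piece 4 Krt6a no longer passed in the comparison over both plates (adjusted p = 0.0884), and without relapse piece 5 Krt17 did (0.0170).

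Between acute and naive stroma no member passed, where 0.118% of all targets differed. The differences were -0.84 for Krt6a (95% confidence interval -1.66 to -0.02), -0.27 for Krt6b (-0.99 to 0.44), -0.81 for Krt16 (-1.58 to -0.04) and -0.12 for Krt17 (-0.68 to 0.44), with adjusted p from 0.448 to 0.914 by limma and 2 members, Krt6a and Krt16, at an unadjusted p under 0.05. The intervals are per target and carry no adjustment over targets.

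**Figure D2:**
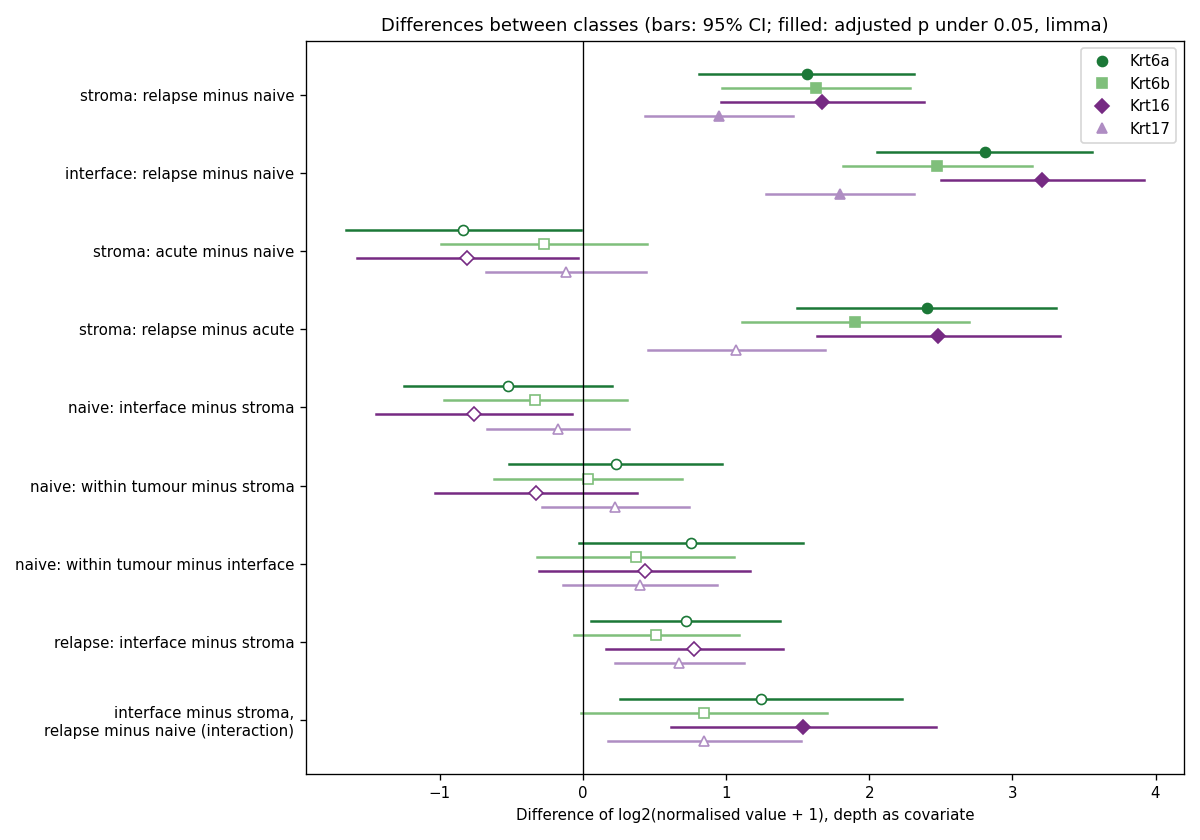
Difference of log2(normalised value + 1) between classes for each member in the 9 comparisons, with depth as a covariate. Bars are 95% confidence intervals and filled symbols mark an adjusted p under 0.05 by limma. All 4 members are filled in both relapse-minus-naive comparisons, 3 in relapse minus acute, and Krt16 alone in the interaction.

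Between locations of the naive slide no member passed by limma, and Krt16 alone, between interface and stroma, had an unadjusted p under 0.05. Between interface and stroma of naive tumours 10.7% of all targets differed. The differences of the members were -0.53 for Krt6a, -0.33 for Krt6b, -0.76 for Krt16 and -0.17 for Krt17, with adjusted p from 0.149 to 0.732. Without naive piece 3 Krt16 passed in this comparison, at -1.25 (adjusted p = 0.0292 by limma). Within naive tumours against naive stroma 4.05% of targets differed and again no member, with differences from -0.33 for Krt16 to 0.23 for Krt6a. Within naive tumours against the naive interface 0% of targets differed, with 369 at an unadjusted p under 0.05, and the largest difference of a member was 0.75 for Krt6a (95% confidence interval -0.03 to 1.53). On a scale of counts per 10000 with 0.5 count added and no depth covariate all 4 members were higher within the tumour, together with much of the panel, since 44.8% of targets differed.

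At relapse, interface minus stroma was above 0 for each member, and no tested target passed by limma (0%), with 122 of 5087 and 3 of the 4 members at an unadjusted p under 0.05. The differences were 0.72 for Krt6a (95% confidence interval 0.06 to 1.37), 0.51 for Krt6b (-0.07 to 1.09), 0.78 for Krt16 (0.16 to 1.40) and 0.67 for Krt17 (0.22 to 1.12), all with an adjusted p of 0.999. Krt16 ranked 1, Krt6a 5, Krt17 8 and Krt6b 25 among the 5087 targets by this difference. The difference between interface and stroma at relapse minus that in naive tumours was 1.54 for Krt16 (SE 0.469, adjusted p = 0.0420), 1.24 for Krt6a (0.151), 0.85 for Krt17 (0.156) and 0.85 for Krt6b (0.299). Krt16 passed this interaction, as did 3.54% of all targets, with 3.5% of targets higher as it was. The basal keratin Krt5, not a member, passed it at 1.94 (adjusted p = 0.00326 by limma), and so did 6 of 8 fibroblast markers. Krt5 was also lower at the naive interface than in naive stroma, by -1.19 (adjusted p = 0.00656). In that comparison 10.7% of all targets differed. Leaving out a piece took the number of members that passed from 1 to 0 for naive pieces 1, 2, 4 and 5 and for relapse pieces 2, 4 and 5, and to 2, with Krt6a added, for relapse piece 1. With differences taken within pieces, a fit chosen after seeing the data, the interaction of Krt16 was 1.41 and did not pass (adjusted p = 0.477 by limma). In that fit interface minus stroma at relapse was 0.997 for Krt6a, 0.90 for Krt6b, 1.06 for Krt16 and 0.82 for Krt17, all 4 at an unadjusted p under 0.05 and at an adjusted p of 0.982 or more, beside 136 of 5087 targets at an unadjusted p under 0.05.

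The highest Krt6a levels within naive tumours came from naive piece 1, where segments of 796 and 1454 counts of depth held 7 and 10 counts of Krt6a. These are 75.4 per 10000 (exact binomial 95% interval 27.7 to 163) and 61.9 per 10000 (28.3 to 117). Krt16 was at 1 and 3 counts in the same segments, and Krt6b at the floor in both, where the same interval allows up to 46.2 and 25.3 per 10000 of Krt6b. A segment of naive piece 5 held 30.5 per 10000 of Krt6a (9.91 to 71) and 18.3 of Krt16. The 3 stroma segments of naive piece 1 also held the highest counts in naive stroma, 25, 22 and 44 of Krt6a and 26, 32 and 46 of Krt16, at depths of 30779, 90877 and 96548. Relative to depth these were 7.80, 2.31 and 4.45 per 10000 of Krt6a and 8.12, 3.41 and 4.66 of Krt16.

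In relapse Krt6a and Krt16 were found above the floor in every piece. At the interface the median Krt6a level was 14.9 per 10000 in relapse piece 1 (6 segments), 37.6 in piece 2 (8 segments) and 28.04 in piece 4 (7 segments). Krt16 stood at 18.4, 33.7 and 37.3 per 10000 in the same pieces. In stroma the medians were 16.9 of Krt6a and 21.97 of Krt16 in piece 2 (2 segments) and 17.5 and 11.7 in piece 4 (9 segments). The levels of relapse piece 5, with 1 segment of each kind, were 5.98 of Krt6a and 8.37 of Krt16 at the interface and 4.13 and 9.29 in stroma. The depth of the piece 1 segments was lower, at a median of 1667 against 5333 and 3921.

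**Figure D3:**
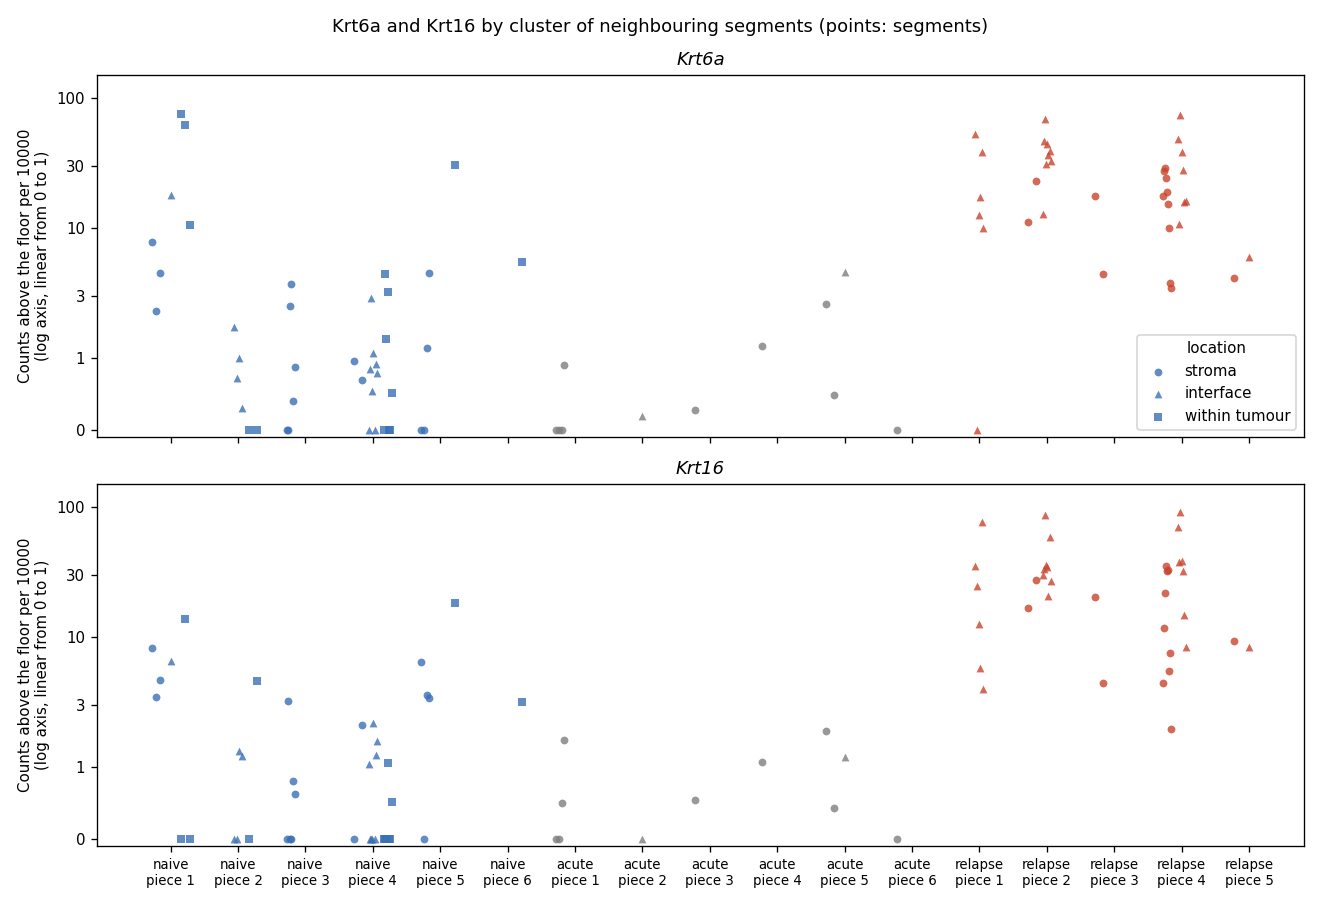
Counts above the floor per 10000 counts of depth (log axis, linear from 0 to 1) for Krt6a and Krt16 in each cluster of neighbouring segments. Symbols give the location and colours the stage as in the plot of levels by class. Naive piece 1 and the naive piece 5 segment within the tumour hold Krt6a at up to 75.4, beside a highest relapse segment of 73.9, and the other naive pieces hold it at 5.46 or less.

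Correlations between members over segments were computed after class means and depth were removed. Across the 89 segments Pearson's r was 0.68 for Krt6a and Krt16, 0.51 for Krt6b and Krt16, 0.49 for Krt6a and Krt6b, 0.45 for Krt16 and Krt17, 0.41 for Krt6a and Krt17 and 0.27 for Krt6b and Krt17. The value for the pair Krt6a and Krt16, a type II keratin with its usual type I partner, was 0.64 in naive (n = 42), 0.94 in acute (n = 11) and 0.68 in relapse (n = 36). The corresponding Spearman's rho were 0.53, 0.95 and 0.72. Krt6b and Krt17, least alike over all segments, were at 0.19 in naive, 0.65 in acute (n = 11) and 0.30 in relapse. These are descriptions: segments share slides and pieces, and the counts behind them are small. Without class means and depth removed the 6 values lay between 0.65 and 0.82. Class means and depth were removed together, and the part of each was not tested.

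**Figure D4:**
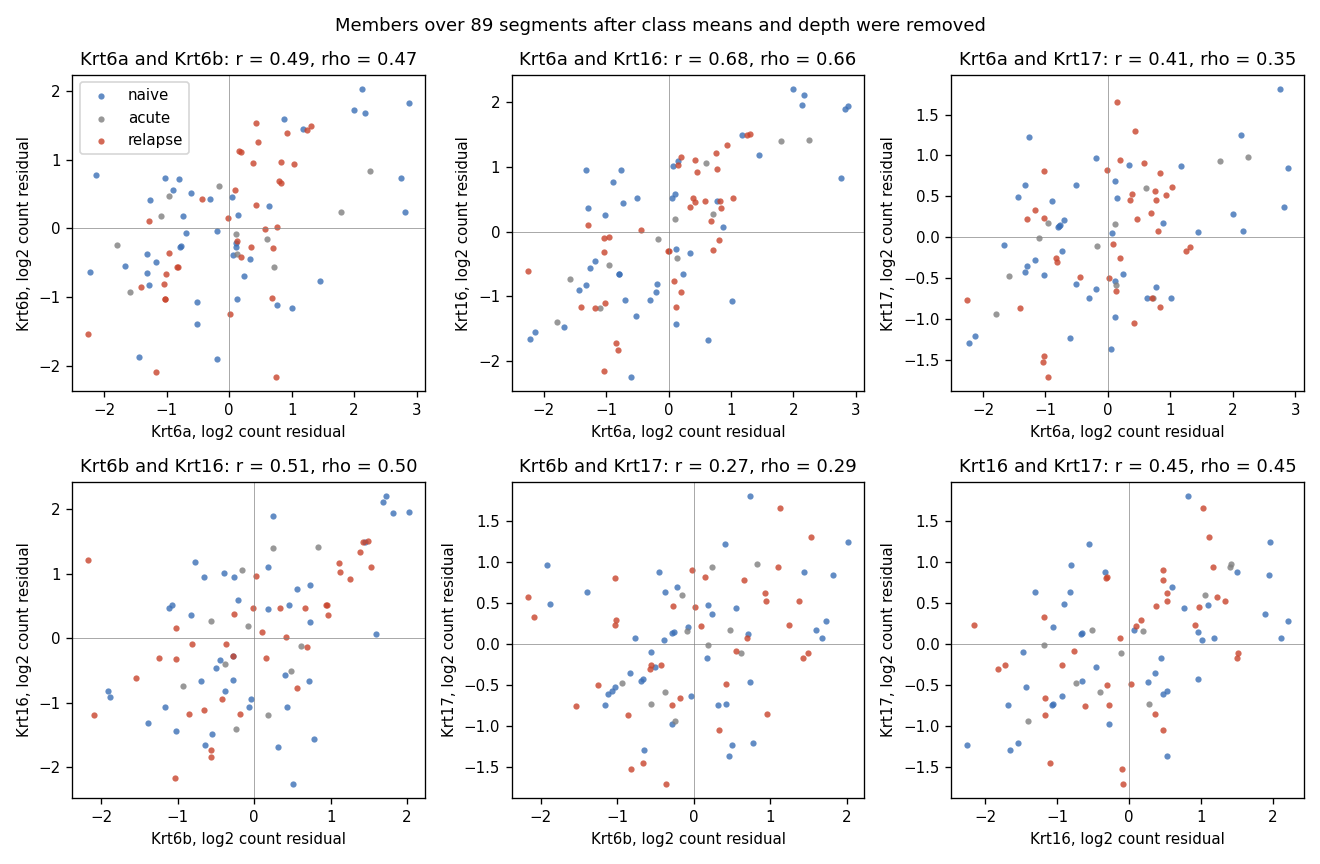
Residual log2 counts of each pair of members over 89 segments after class means and log2 depth were removed, coloured by stage, with Pearson's r and Spearman's rho in the panel titles. Krt6a and Krt16 lie closest to a line (r = 0.68) and Krt6b and Krt17 least (r = 0.27).

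The targets most like each member, out of 5086, included keratinocyte genes for each of the 4. Krt16 came first for Krt6a, followed by Fabp5 (0.67), a fatty acid binding protein of epidermis, the basal keratins Krt14 (0.64) and Krt5 (0.61), and Lgals7 (0.56), a galectin of stratified epithelium. Krt6b was most like Krt14 (0.73), then Fabp5 (0.57), Krt5 (0.52), Krt16 and Krt6a. Krt16 was most like Krt6a, then Krt14 (0.63), Sprr1b (0.61), a cornified envelope precursor, Fabp5 (0.61) and Cd9 (0.56). Krt17 was most like Krt5 (0.51), then Krt16, Txndc5 (0.45), Trim3 (0.44) and Fabp5 (0.44). Krt17 itself ranked 101 among the targets by likeness to Krt6b, below the 99th percentile of 0.30. The median r over all targets was 0.12 for Krt6a, 0.04 for Krt6b, 0.14 for Krt16 and 0.13 for Krt17.

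Of 54 keratins on the panel 14 were tested, and of the 10 that are not members Krt5 and Krt14 were higher in relapse than in naive stroma, by 1.29 and 1.75, and than at the naive interface, by 3.23 and 2.57 (adjusted p at most 0.0145 by limma). Of all tested targets 0.295% and 1.42% were higher in these comparisons. Krt5 and Krt14 were also higher in relapse than in acute stroma, by 1.68 and 2.10, where 0.865% of all targets were higher. With plate as a covariate neither passed in stroma, with adjusted p of 0.699 and 0.674 against naive and 0.0776 and 0.0704 against acute by limma, and at the interface Krt5 passed (0.0246) and Krt14 did not (0.445). Without relapse piece 4 neither passed in stroma, at 0.63 for Krt5 and 1.497 for Krt14 against naive (adjusted p = 0.998 and 0.589) and 1.02 and 1.85 against acute (0.724 and 0.316), and both passed at the interface. Against naive stroma neither passed without naive piece 3, only Krt14 passed without naive piece 4 and only Krt5 without naive piece 5. At the interface only Krt5 passed without naive piece 4. The other 8 tested keratins, among them Krt1 and Krt10, did not pass in these 3 comparisons.

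Summed markers of keratinocytes were also highest in relapse, where Krt14 and Krt5 made up much of the sum. The 10 listed, which include Krt5 and Krt14 and none of the 4, summed to a median of 8.12 per 10000 in naive stroma (range 1.86 to 49.1), 7.95 at the naive interface (2.88 to 42.04) and 11.6 within naive tumours (2.21 to 229). The sums were 13.1 in acute stroma (5.13 to 26.2), 32.4 in relapse stroma (8.06 to 72.3) and 81.7 at the relapse interface (0 to 212). Of the 8 tested, 2 were higher in relapse than naive stroma and 3 at the interface, beside 0.295% and 1.42% of all targets. Dsp, a desmosome protein, was the third at the interface, at 1.15 (adjusted p = 4.60e-05 by limma). Krt14 and Krt5 had medians of 19.2 and 8.77 per 10000 in relapse stroma and 47.3 and 17.8 at the relapse interface. In each relapse class 6 of the 10 markers had a median at the floor, Krt10 among them. Trp63 and Pkp1 had a median at the floor in all naive and relapse classes. The part of keratinocyte content in the differences of the 4 members was not tested. In segments of mixed tissue more epithelial cells and more keratin RNA per cell cannot be told apart.

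Of 8 fibroblast markers 6 were lower in relapse than in naive stroma, where 1.61% of all targets differed in either direction. Col3a1 differed by -3.07 and Col1a1 by -2.95. The sum of the 8 had a median of 209 per 10000 in naive stroma (range 15 to 354) and 15.2 in relapse stroma (6.86 to 460). At the interface none of the 8 passed between relapse and naive, with medians of 40.2 and 14.7 per 10000. Without relapse piece 4 only Col3a1 passed in stroma, and with plate as a covariate none of the 8 did, with 2 at an unadjusted p under 0.05. Of 8 macrophage markers 2 were lower in relapse than in naive stroma, again beside 1.61% of all targets that differed. These were Apoe at -2.75 (adjusted p = 9.11e-05 by limma) and C1qa at -1.01 (adjusted p = 0.04998). The 8 summed to a median of 62.4 per 10000 in naive stroma (range 2.39 to 138) and 10.8 in relapse stroma (0 to 193). Neither macrophage marker passed without relapse piece 4 or with plate as a covariate, each with 1 of the 8 at an unadjusted p under 0.05. C1qa also missed the threshold when naive piece 1, 2, 5 or 6 or relapse piece 1, 2 or 5 was left out. It did so too without acute piece 3 or 4, which hold no segment of this comparison. The part of fibroblast and macrophage content in the keratin result in stroma was not tested.

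An annotation tag with the word Cancer marked 13 of 22 relapse interface segments, 4 of 13 naive interface segments and 3 of 9 acute stroma segments. Within these classes no member passed between tagged and untagged segments in 12 exact permutation tests (two-sided, adjusted p at least 0.810). The tests used log2 of the level plus 4, which flattens low levels. With 3 tagged and 6 untagged acute stroma segments an exact p cannot be very small, so the tests there could hardly pass. At the relapse interface the median level of Krt6a was 32.9 per 10000 in tagged and 31.2 in untagged segments, and of Krt16 29.7 and 35.3. Tagged segments there were deeper, with a median depth of 5853 against 1879 (exact permutation p = 0.0151).

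Of the other genes of wound epidermis 1 passed in any comparison. A list of 36 such genes, with small proline-rich proteins, alarmins, epidermal cytokines and growth factors, had 28 on the panel and 14 tested. By limma none passed between relapse and naive, while 3 in stroma and 4 at the interface had an unadjusted p under 0.05, beside 499 and 722 of all 5087 targets, and the median differences of the 14 were 0.15 and 0.21, beside -0.03 and 0.13 over all targets. Sprr1a, a cornified envelope precursor, was higher in relapse than in acute stroma by 1.47 (adjusted p = 0.00184 by limma). In that comparison 0.865% of all targets were higher. Of 20 reported regulators of stress keratins, such as Nfe2l2, Stat3 and AP-1 subunits, 4 were tested and none passed between relapse and naive by limma, with 0 in stroma and 2 at the interface at an unadjusted p under 0.05. Jund, an AP-1 subunit, was lower at the naive interface than in naive stroma by -0.93 (adjusted p = 0.000455). There 10.7% of all targets differed, and no stress keratin passed. With differences taken within pieces limma called 0 targets in that comparison, while 501 had an unadjusted p under 0.05.

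Of 11 epidermal differentiation genes tested, Krtdap (0.98, adjusted p = 0.0284 by limma) and Tgm3 (0.78, adjusted p = 0.0213), both of upper epidermal layers, were higher at the relapse than at the naive interface, where 1.42% of all targets were higher. Sbsn, a secreted protein of upper epidermis, was lower at the naive interface than in naive stroma by -0.59 (adjusted p = 0.0288). In that comparison 10.7% of all targets differed, and 0 did with differences taken within pieces. None of the 11 genes passed in stroma between relapse and naive or acute, where 2 and 4 had an unadjusted p under 0.05, beside 499 and 552 of all targets. Of the basal list of 20 genes 7 were tested, and those that passed between relapse and naive were Krt5, Krt14 and, at the interface, Dsp. The list of hair follicle genes had 2 tested and that of simple epithelial keratins 1, and none of these passed by limma in any comparison, with at most 2 at an unadjusted p under 0.05.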

How the data were processed

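Tags were counted per target in 89 segments. The deposited matrix holds normalised signal, which the authors made by dividing each count by a factor. That factor is a deposited ratio, 1 per segment, with 9 distinct values from 0.267 to 3.48, and 51 segments share the lowest. The submitters' processing notes name mm10 and Seurat. The aligner and counter are not given in the sources used here. Signal times factor was whole within 1e-06 for 99.986% of values, and 3 of 19962 targets held values that were not.

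Targets above the limit of quantitation, the larger of 2 counts and the negative-probe geometric mean times its geometric SD to the power 2, in at least 10% of segments were tested (5087). limma 3.58.1 (lmFit and eBayes with trend, R 4.3.3) was fitted on log2(value + 1) with 7 class means and log2 depth, two-sided, with Benjamini-Hochberg adjustment at 0.05. The labels give all segments 1 group, so class came from the deposited annotation. Pieces join segments within 6000 scanner units. No pair of segments held identical values. Scripts used numpy 2.4.6, pandas 2.3.3, SciPy 1.17.1 and matplotlib 3.10.9, and the fits were tested on simulated data. Alternatives were depth, share and nuclei scaling, pseudocounts of 0.25 and 4, filters, plate, piece as random block and, added later, as fixed block, a depth of at least 2000 counts and leaving out each piece.

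The 4 genes, the gene lists and the tests were chosen with earlier results of these data known. Named genes are the 4 members, for each member the 5 targets of highest r, and up to 4 of each list's targets past the threshold per comparison. Krt1, Krt10, Trp63, Pkp1 and Ly6g were named outside this rule after their values were seen. Promoter and protein sequences of the members are not analysed here.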

Additional observations from a re-analysis of the deposited data

Results flagged for a closer look

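In acute stroma 1 segment, in acute piece 5, stood apart for Krt6a at 2.62 counts above the floor per 10000 (exact binomial 95% interval 1.86 to 3.58), with the next of the 9 segments at 1.24. It held 40 counts of Krt6a, 21 of Krt6b, 29 of Krt16 and 15 of Krt17 at a depth of 149120, and the other 3 members did not stand apart in the same way. The check was Dixon's, the gap to the next segment over the range, at 0.527 for Krt6a beside a critical value of 0.493. Of the 7 classes only acute stroma has between 4 and 10 segments, so 4 such checks were made. Chance flags about 1 in 20 if values are normally distributed. These levels are bounded at 0, with 4 of the 9 segments at the floor for Krt6a, so the rate here is not known.

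For Krt16 the difference between interface and stroma was 1.54 larger at relapse than in naive tumours (log2, adjusted p = 0.0420 by limma). The difference was -0.76 in naive tumours and 0.78 at relapse, neither past the threshold on its own. It did not pass with piece as a random block (adjusted p = 0.0809), within pieces (0.477) or without the filter on low targets (0.122). Krt5, not a member, also passed this interaction in the main fit, at 1.94 (adjusted p = 0.00326 by limma).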

How the results depend on the processing

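Of 1052 alternative values of single members, 982 kept direction and side of the threshold, 38 lost it, 10 gained it and 22 changed sign, all of these values that had not passed. This total includes fits that left out a piece with no segment in the comparison. It also includes comparisons in which no member passed, so it does not measure how stable the results are. For no member did relapse minus naive or relapse minus acute change sign, and the ranges were 0.46 to 2.80 in stroma, 1.21 to 4.96 at the interface and 0.57 to 3.91 for relapse minus acute. The number of members that passed between relapse and naive went from 4 to 0 in stroma and from 4 to 1 at the interface with plate as a covariate, and ranged from 0 to 4 and from 3 to 4 when a piece was left out. For interface minus stroma in naive tumours that range was 0 to 1, and for the interaction 0 to 2. On the share of counts scale, which adds 0.5 count and follows depth, 4 members passed within naive tumours against the interface, and 2277 of all targets did. The interaction of Krt16 gave 0 members without the depth covariate, on the share scale with a constant of 4 and depth as covariate (chosen after seeing the data), with pseudocount 4, without the filter, with piece as random or fixed block and with nuclei in place of depth, and 2 members at a depth of 2000 or more; the cause was not tested.

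Krt17 in relapse minus naive stroma also missed the threshold without the filter, without the depth covariate, with nuclei, with the random block and on the share scale with a constant. Krt6a did so in relapse minus acute on that last scale (adjusted p = 0.0666). The signs that changed were those of Krt17 in acute minus naive (0.063 on the share scale, 0.038 with the constant) and in naive interface minus stroma (0.070 with the constant, 0.19 with piece as fixed block, -0.29 to 0.15 when a piece was left out). Leaving out a piece moved Krt6b from -0.58 to 0.039 in acute minus naive and from -0.61 to 0.14 in naive interface minus stroma, where Krt6a was 0.42 with piece as fixed block. Within naive tumours against stroma Krt6b was -0.15 without the depth covariate, -0.17 with nuclei, -0.26 at a depth of 2000 or more, -0.14 on plate G alone, -0.18 with piece as fixed block and -0.19 to 0.38 when a piece was left out. Krt6a was -0.39 at a depth of 2000 or more, -0.011 on plate G alone and -0.046 to 1.09 when a piece was left out, and Krt16 was 0.10 on the share scale and -0.81 to 0.31 when a piece was left out.

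Co-variation without removing class means and depth, and on the share scale, was 0.72 and 0.80 for Krt6a and Krt6b, 0.82 and 0.87 for Krt6a and Krt16, 0.65 and 0.78 for Krt6a and Krt17, 0.77 and 0.81 for Krt6b and Krt16, 0.66 and 0.74 for Krt6b and Krt17, and 0.69 and 0.79 for Krt16 and Krt17.

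Over all targets the number that passed ranged from 2 (plate as covariate) to 242 (share scale) in relapse minus naive stroma, beside 82, from 4 to 4382 at the interface, beside 74, and from 9 (without relapse piece 4) to 362 (share scale) in relapse minus acute, beside 50. In relapse interface minus stroma limma gave 0 to 1. Piece as fixed block took naive interface minus stroma from 546 to 0, within naive tumours against stroma from 206 to 2 and the interaction from 180 to 0. The planned count test was not run, since the deposited values are normalised signal, and the counts recovered through the factor were used for description. No paired analysis was possible because the labels give no replicate numbers shared between groups; pieces, a grouping by position, stood in as a random block and, for differences within a stage, as a fixed one. A count of 1 is the floor, held by 69.1% of all values, and limits what can be said of Krt17 in shallow segments.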
